A study of Mus musculus with 4 samples.

Results

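The loci described here are 8 windows of the mouse genome, placed in mm9 coordinates around genes of fibroblast growth factor (FGF) and epidermal growth factor (EGF) signalling. A member is any peak of the 4 deposited lists whose summit lies in a window, which gave 266 of the 125330 peaks on chromosomes 1 to 19 and X. Of these, 33 were EGFP_OK peaks, 64 Pax6 peaks, 89 Etv6 peaks and 80 H3K4me2 peaks. The windows were selected on the positions of called peaks, with earlier results of the same lists known. The number of peaks in them is therefore a description and no evidence that they stand apart. The window edges fall at different distances from peaks, with the nearest summit of any list 0.735 to 52.0 kb inside an edge and 1.28 to 122.0 kb outside it.

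All 4 libraries came from neural progenitor-like cells derived from 129/SvJ embryonic stem cells, at passages 15 to 18, and each group held 1 library. The cells were grown in medium with 10 ng/ml EGF and 10 ng/ml FGF-2, and no library came from cells without these ligands. Chromatin immunoprecipitation followed by sequencing (ChIP-seq) used the M2 antibody against the FLAG tag for 3 libraries. The titles of 2 of them name Pax6, a paired-box and homeobox factor of eye and forebrain, and Etv6, a factor of the ETS family, both with the letters NS. The third FLAG library is called EGFP_OK after its title, which also has N31 but gives no tagged factor. The last library used an antibody to dimethyl Lys4 of histone H3 (H3K4me2), a modification found at promoters and enhancers, and its title names N31, Oct4, EGFP and 0 hr. Differences of EGFP_OK from Pax6 and Etv6 and differences of N31 from NS cells cannot be told apart. The lists hold positions without expression values, so the labelled cell type was not checked against marker genes. Nothing in the labels describes separate cultures, and with 1 library per group no difference between libraries has a replicate check.

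The lists differ in depth. After duplicate removal the libraries held 5288154 (Pax6) to 24550365 (H3K4me2) tags, and the share of tags that were duplicates was 81% in Pax6 and 16 to 39% in the others. Median tags per peak were lowest in Pax6, at 19, and highest in H3K4me2, at 120, with EGFP_OK at 47 and Etv6 at 54.

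FGF and EGF ligands bind receptor tyrosine kinases at the cell surface and activate the Ras and MAP kinase cascade, which acts in the nucleus largely through ETS transcription factors. Sprouty proteins and the phosphatase Dusp6 are induced by the cascade and dampen it, and Etv4 and Etv5 are ETS factors that are widely used as readouts of FGF signalling. Neural stem cells in culture are commonly expanded in EGF and FGF-2. Whether the 8 genes respond to these ligands in these cells was not measured here.

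Each window also holds sequence beside its gene. In the RefSeq gene order of GRCm38, a different build used here for names only, Fgf1 lies within the span of Arhgap26 and overlaps Gm5820. Spry4 lies next to Arhgap26, Spry1 between Spata5 and Gm5148, Spry2 between Ndfip2 and Trim52, and Dusp6 between Poc1b and Csl. Etv4 lies between Dhx8 and Meox1, Etv5 between Tra2b and Dgkg, and Egfr between Sec61g and Fbxo48. Peaks are named by window and position and were not assigned to a gene, a promoter, an exon or an intron.

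Promoter sequences from RefSeq (GRCm38.p6) were at hand for 5 of the 8 genes. Those of the receptor, of a Sprouty gene and of Dusp6 are shown because ETS factors such as Etv6 recognise a GGAA core. Each run is the 250 bases before the gene start on the gene's strand, and capitals mark GGAA, its reverse complement TTCC and the longer ETS-type match CCGGAAG or CTTCCGG, which contains the core.
Egfr, chr11:16751953-16752202, plus strand: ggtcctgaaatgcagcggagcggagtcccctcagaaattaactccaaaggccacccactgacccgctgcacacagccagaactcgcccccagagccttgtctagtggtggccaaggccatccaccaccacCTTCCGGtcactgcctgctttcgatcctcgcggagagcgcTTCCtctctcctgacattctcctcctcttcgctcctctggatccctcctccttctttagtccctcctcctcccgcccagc
Spry1, chr3:37639697-37639946, plus strand: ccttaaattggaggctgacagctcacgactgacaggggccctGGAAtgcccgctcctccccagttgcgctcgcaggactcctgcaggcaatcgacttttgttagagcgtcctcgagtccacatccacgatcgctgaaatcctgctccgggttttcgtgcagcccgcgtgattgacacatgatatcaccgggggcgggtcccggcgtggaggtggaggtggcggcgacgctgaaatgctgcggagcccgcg
Dusp6, chr10:99262981-99263230, plus strand: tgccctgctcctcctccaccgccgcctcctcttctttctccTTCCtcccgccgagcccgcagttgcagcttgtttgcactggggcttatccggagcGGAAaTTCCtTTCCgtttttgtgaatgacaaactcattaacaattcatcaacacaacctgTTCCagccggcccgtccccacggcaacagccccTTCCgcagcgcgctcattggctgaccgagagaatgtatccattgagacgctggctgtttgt
The Dusp6 sequence held 6 core matches on both strands together, the Egfr sequence 2 and the Spry1 sequence 1. Of the sequences not printed, that of Spry2 held 3 and the pair for Etv5, which has 2 listed starts, held 0 and 4. Of the 32851 promoters of the same length, 93.4% held at least 1 core match, with a median of 3, and 8.69% held at least 6. The longer match CCGGAAG was in the Egfr sequence, where it includes 1 of the core matches, and in 6.91% of all promoters. A match is a description of letters, and these coordinates are not on the scale of the mm9 peaks.

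Etv6 and Pax6 peaks were denser in the windows than in their whole lists, 3.11 and 4.17 times, and EGFP_OK peaks 1.26 times. Over the 1730 kb of the 8 windows there were 5.14 Etv6 peaks per 100 kb, against 1.65 for the whole list over the effective genome size in the file headers. The windows were counted over all their bases, so the ratios rest on unlike lengths. For Pax6 the values were 3.70 and 0.888, for H3K4me2 4.62 and 2.64, and for EGFP_OK 1.91 and 1.52. At the densities of the whole lists, windows of this size would hold 28.6 Etv6, 15.4 Pax6, 45.8 H3K4me2 and 26.2 EGFP_OK peaks. The Spry1 and Fgf1 windows held most of the Pax6 and Etv6 peaks. Without both, 36 Etv6, 25 Pax6, 20 EGFP_OK and 38 H3K4me2 peaks were left. The Spry1 and Fgf1 windows span 650 and 200 kb of the 1730 kb. At the densities of the whole lists they would hold 10.8 and 3.31 Etv6 peaks and 5.77 and 1.78 Pax6 peaks.

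**Figure D1:**
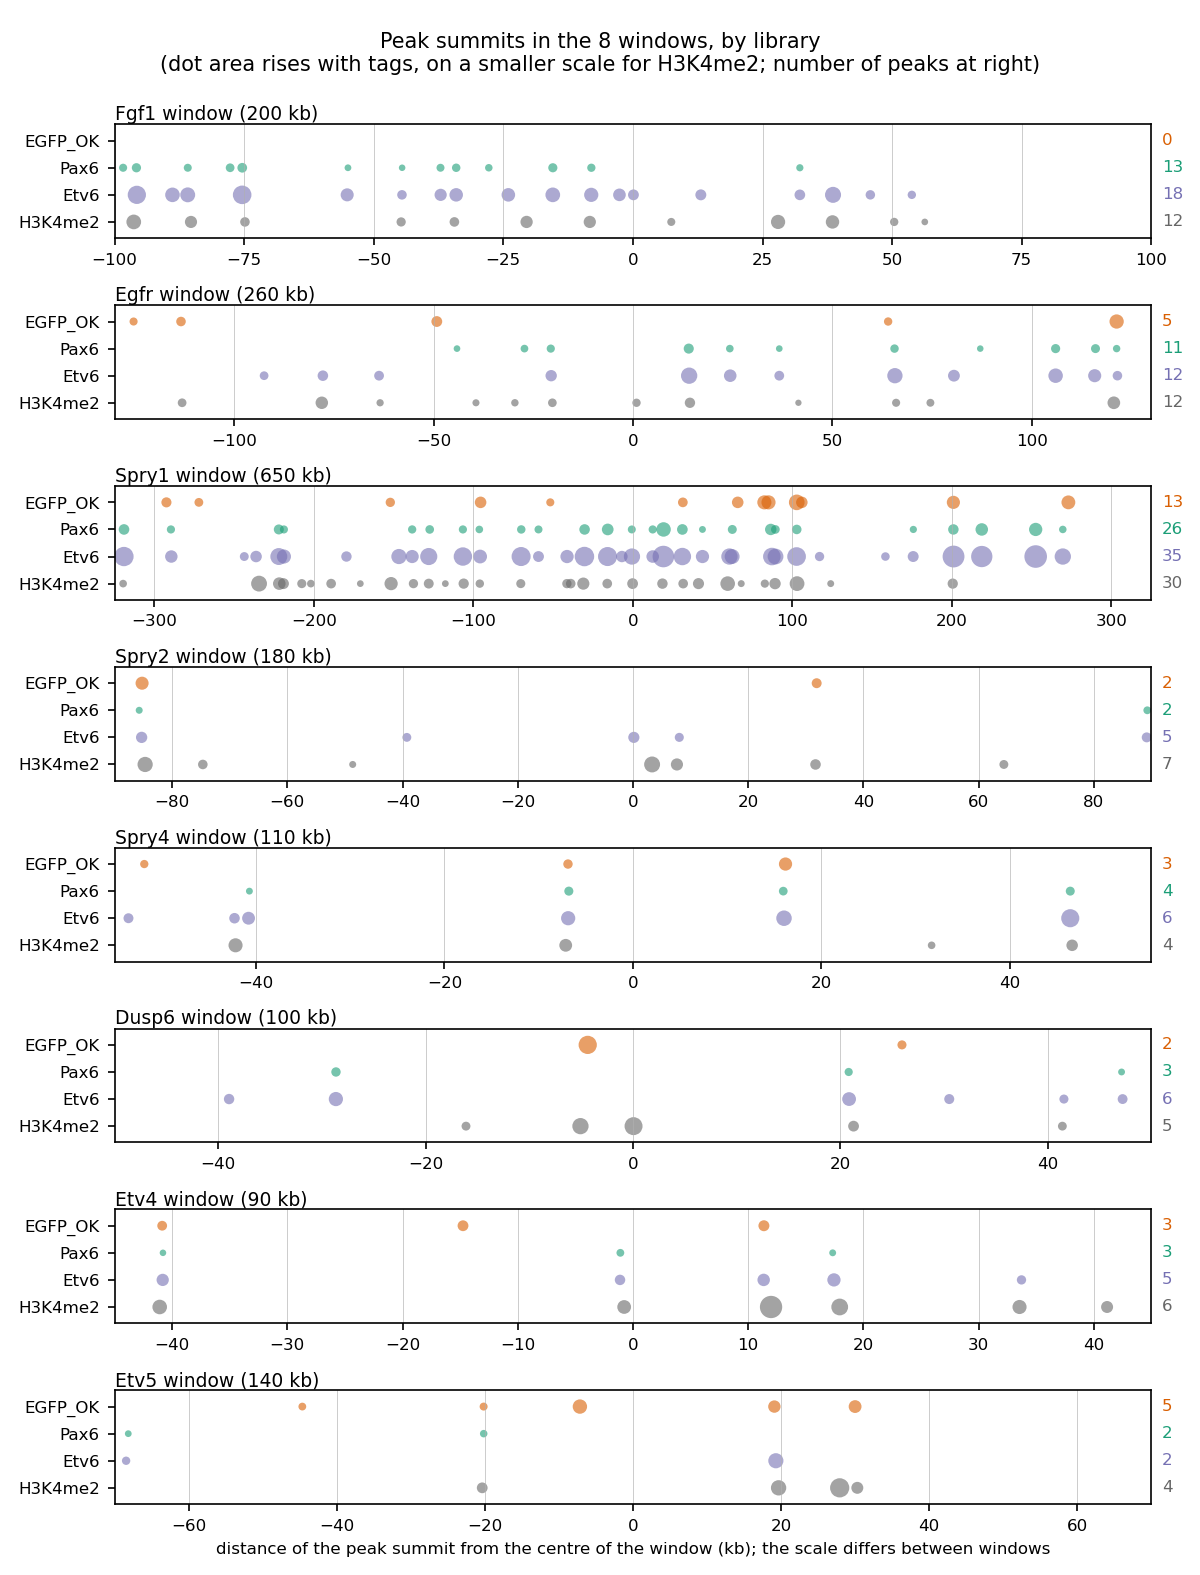
Map of the peak summits in each window, with the distance from the window's centre in kb on the x axis and 1 row per library; each dot is a peak and its area rises with its tags, on a smaller scale for H3K4me2. The Fgf1 window has 18 Etv6 and 13 Pax6 summits and an empty EGFP_OK row, and the Etv5 window has 5 EGFP_OK summits and 2 each of Pax6 and Etv6.

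The windows differed in which list was densest. Etv6 density was lowest at Etv5, with 1.43 peaks per 100 kb, and highest at Fgf1, with 18 peaks in 200 kb. Pax6 density was lowest at Spry2, with 1.11, and highest at Fgf1, with 13 peaks in 200 kb. EGFP_OK density ran from 0 at Fgf1 to 3.57 at Etv5. With all peaks counted, it was there above the densities of Pax6 and Etv6, both 1.43. H3K4me2 density ran from 2.86 at Etv5 to 6.67 at Etv4. Set against the same chromosome, with its span taken to the last peak, the Etv6 density was 0.967 times the chromosome's at Etv5 and between 2.70 and 7.34 times in the other 7 windows. The EGFP_OK density, leaving out Fgf1, was between 1.11 and 2.98 times that of its chromosome. The peaks in 1 window share a library and a stretch of chromatin and are not replicates of each other.

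**Figure D2:**
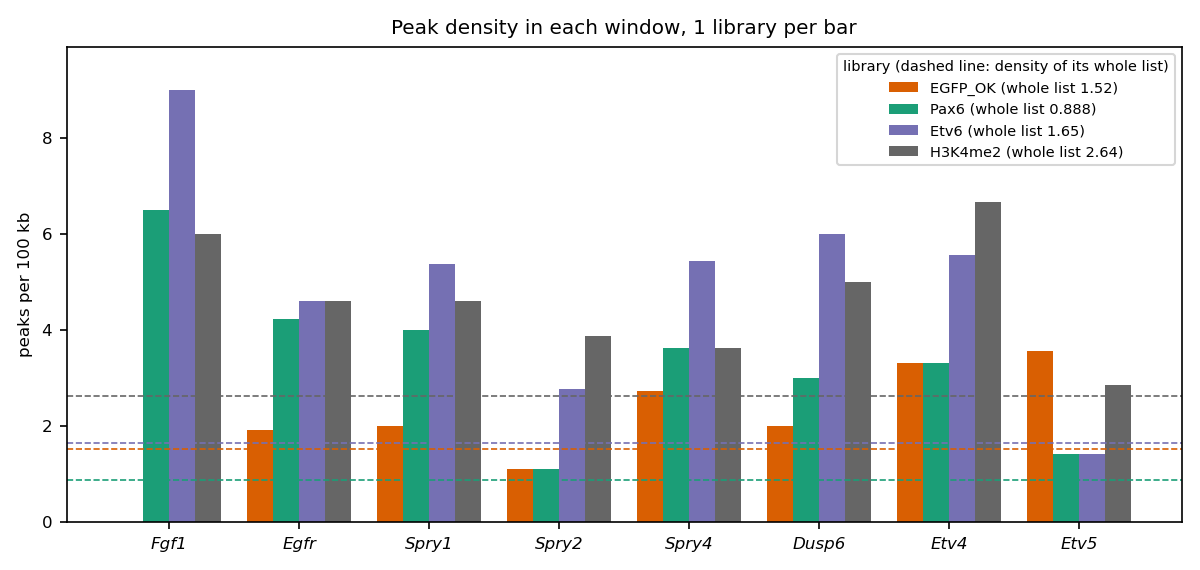
Peaks per 100 kb (y axis, from 0) in each window (x axis) for the 4 libraries, 1 library per bar and no error bars because there are no replicates; dashed lines give the density of each whole list. Pax6 bars are above the dashed line of the Pax6 list of 0.888 in all 8 windows, the lowest being 1.11, and the Etv6 bar at Etv5 is drawn below that of the Etv6 list. The lines divide by the effective genome size and the bars by all bases of a window. A bar near its line therefore cannot be called below or above the list.

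Fgf1 encodes an FGF ligand that binds all FGF receptors. Its window on chromosome 18 (38950000 to 39150000) held 18 Etv6 peaks, 13 Pax6 peaks, 12 H3K4me2 peaks and 0 EGFP_OK peaks. At the density of the whole EGFP_OK list over the effective genome size, 1.52 per 100 kb, a window of this size would hold 3.03 of its peaks. The EGFP_OK list had 831 peaks on chromosome 18, or 0.916 per 100 kb of its span to the last peak. These 2 densities rest on unlike lengths and do not compare chromosome 18 with the list. At the density of 0.916 the window would hold fewer than 3.03 peaks. The nearest EGFP_OK summit was 101183 bp from a Pax6 summit of the window and 102135 bp from an Etv6 summit. The list names only peaks past the calling cutoff, none with under 19 tags, so an empty window is not a window without tags. Widening the window by 50 kb on each side left the count of EGFP_OK peaks at 0.

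The Fgf1 peaks held many tags but had moderate folds. Neighbouring Etv6 summits lay a median of 7.46 kb apart and Pax6 summits 7.80 kb apart, and Etv6 peaks covered 14.2% of the window. The Etv6 peak with the most tags there (38973953 to 38976141) held 210 tags (95% exact Poisson interval 183 to 240, as for the other intervals of tags, for counting error only) at 7.63-fold over its local background. The Pax6 peak on it held 45 tags (32.8 to 60.2) at 13.1-fold, and an H3K4me2 peak with 125 tags covered both summits. The Etv6 peaks of the window held a median of 99.0 tags, against 54 in the whole list, while their median fold was 5.53, against 6.26. Of the 18, 15 had more tags than the list's median and 5 had a fold above the list's median. The scores and folds are the peak caller's own and compare each peak with the same library within 10 kb.

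Of the 13 Pax6 peaks at Fgf1, 10 overlapped an Etv6 peak, or 76.9% against 72.6% of the Pax6 list, and 9 of these pairs had summits within 100 bp. The closest pair, at 39015913 for Pax6 and 39015911 for Etv6, was 2 bp apart. H3K4me2 covered 7 of the 18 Etv6 summits, where its share over the list was 51.9%, and 7 of the 13 Pax6 summits, where it was 43.7%. The strongest H3K4me2 peak by fold (39099754 to 39100892, 12.6-fold, 83 tags) held no FLAG summit. A wide H3K4me2 peak of 5068 bp (38950724 to 38955791) held 365 tags at 3.18-fold, with 2 Pax6 peaks and 1 Etv6 peak on it.

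Egfr encodes the EGF receptor, a receptor tyrosine kinase. Its window on chromosome 11 (16600000 to 16860000) held 12 Etv6, 11 Pax6, 12 H3K4me2 and 5 EGFP_OK peaks. Pax6 and Etv6 were shared at 8 sites, or 72.7% of the Pax6 peaks, near the 72.6% of the Pax6 list. The EGFP_OK list joined them at 1 of these, or 9.09% of the Pax6 peaks against 16.6% of the list. That site, the only one here in all 4 lists (EGFP_OK peak 16850277 to 16852954), held 117 EGFP_OK tags, 19 Pax6 tags, 43 Etv6 tags and 258 H3K4me2 tags. Its EGFP_OK summit was 32 bp from the Pax6 summit and 118 bp from the Etv6 summit. Scaled to kept tags, the EGFP_OK peak held 3.05 times the tags of the Etv6 peak (95% interval 2.13 to 4.43), but it was called 2678 bp wide and the Etv6 peak 1183 bp. Per kb of peak width the ratio was 1.35, against a median of 0.930 over all such pairs of the lists.

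The other leading Egfr peaks belonged to Pax6 and Etv6. The highest-scoring site of both (Etv6 peak 16742950 to 16744921) held 158 Etv6 tags (134 to 185) and 50 Pax6 tags (37.1 to 65.9), with summits 18 bp apart, inside an H3K4me2 peak of 156 tags. The EGFP_OK peak with the highest fold there (16680236 to 16681455, 12.2-fold, 60 tags) was in no other list, 5063 bp from the nearest Pax6 summit. The Egfr window held 3 Pax6 peaks in no other FLAG list, with 11, 12 and 22 tags. They were 27.3% of its Pax6 peaks, near the 23.9% of the Pax6 list. The highest-scoring H3K4me2 peak of the window (16651365 to 16653654, 249 tags), which ranked 2696 in its list, held an Etv6 summit and no Pax6 or EGFP_OK summit. No H3K4me2 peak here was wider than 3 kb.

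Spry1 encodes a Sprouty protein, an inhibitor of receptor tyrosine kinase signalling. Its window on chromosome 3 (37450000 to 38100000) is the widest at 650 kb and held 35 Etv6, 26 Pax6, 30 H3K4me2 and 13 EGFP_OK peaks. All 26 Pax6 peaks overlapped an Etv6 peak, against 72.6% of the Pax6 list. It was the window with the highest-ranked peaks, with 6 of the Etv6 peaks and 4 of the Pax6 peaks in the highest 1% of their lists by score, and no other window had such a peak.

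The highest-ranked of these sites lay far from H3K4me2, while others lay inside it. Etv6 peaks ranked 66, 225 and 239 by score and Pax6 peaks ranked 98 and 134 had their summits inside H3K4me2. At 37992935 to 37994283 the Pax6 peak held 86 tags (68.8 to 106) and the Etv6 peak 281 tags (249 to 316), which ranked 18 by score in the Etv6 list. The nearest H3K4me2 summit was 18172 bp from the Pax6 summit. At 38026875 to 38028213 the Pax6 peak held 99 tags (80.5 to 121) and the Etv6 peak 319 tags (285 to 356), the most of any FLAG peak in the windows, 52059 bp from the nearest H3K4me2 summit. A lower site (38043990 to 38045051) held 20 Pax6 and 158 Etv6 tags with both summits at 38044506.

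Beyond these sites stood an EGFP_OK peak that was in no other list. It lay at 38047304 to 38048683, with 109 tags (89.5 to 131) at 14.5-fold, and its summit was 3515 bp from the last Pax6 and Etv6 summit. Another EGFP_OK peak in no other list, at 37840164 to 37841153, held 71 tags at 15.1-fold, the highest fold of EGFP_OK in the windows. Of the 13 EGFP_OK peaks at Spry1, 5 overlapped both a Pax6 and an Etv6 peak, or 38.5% (13.9 to 68.4) against 9.65% of the list. The other 8 were in no other FLAG list, or 61.5% (31.6 to 86.1), within counting error of the 77.0% in the list.

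Of the 51 sites at Spry1, 12 were in the Pax6, Etv6 and H3K4me2 lists without EGFP_OK, 5 in all 4 lists, 2 in EGFP_OK and H3K4me2 only and 1 in Etv6 and H3K4me2 only. The site at 37793250 to 37795372 held 121 Pax6 tags (100 to 145), the most of any Pax6 peak in the windows, 289 Etv6 tags (257 to 324) and 159 H3K4me2 tags. At 37975280 to 37976654 all 4 lists had a peak, with 97 EGFP_OK, 55 Pax6, 297 Etv6 and 152 H3K4me2 tags, and the EGFP_OK and Pax6 summits were 1 bp apart. The other sites of the window in all 4 lists had EGFP_OK peaks at 37678855 to 37680205, 37805780 to 37806895, 37859337 to 37860964 and 37875924 to 37878514, with 71, 45, 114 and 144 tags. At the first of these the Pax6 peak held 21 tags and the Etv6 peak 108, and at the second 58 and 183. At the third, a chain of partly overlapping peaks, the EGFP_OK peak did not overlap the H3K4me2 peak, and its summit was 2071 bp from the Etv6 summit. At the fourth the EGFP_OK summit was 62 bp from the Etv6 summit and 33 bp from the Pax6 summit.

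**Figure D3:**
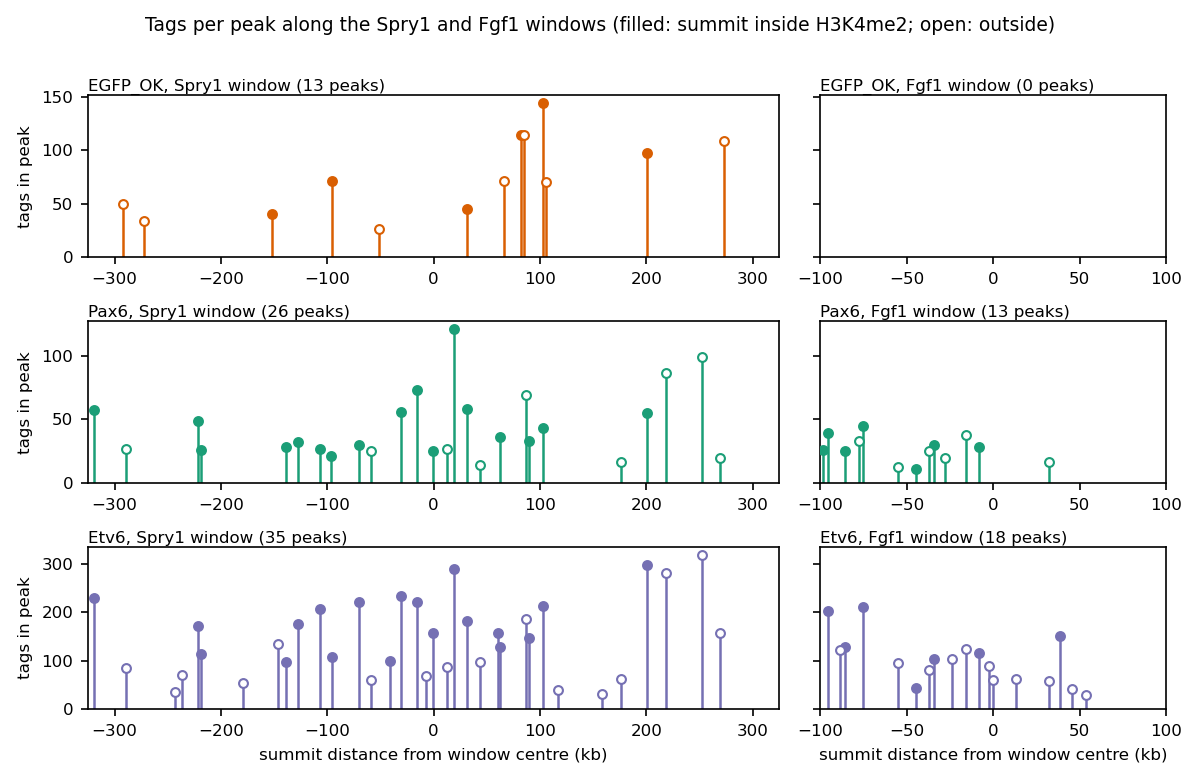
Tags per peak (y axis, separate scale for each library) against the distance of the summit from the window's centre in kb (x axis) in the Spry1 and Fgf1 windows; filled dots are summits inside an H3K4me2 peak and open dots summits outside. The tallest Etv6 and second-tallest Pax6 dots at Spry1, with 319 and 99 tags, are open and lie toward the right end of the window.

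Spry2 and Spry4 encode further Sprouty proteins. The Spry2 window on chromosome 14 (106200000 to 106380000) held 7 H3K4me2, 5 Etv6, 2 Pax6 and 2 EGFP_OK peaks, the fewest FLAG peaks together with Etv5. Its site in all 4 lists (EGFP_OK peak 106203842 to 106205649) held 95 EGFP_OK tags, 15 Pax6 tags, 67 Etv6 tags and 395 H3K4me2 tags. Scaled to kept tags, EGFP_OK held 1.59 times the Etv6 tags there (1.15 to 2.20), in peaks of 1808 and 1411 bp, and 1.24 times per kb of peak width. Its other Pax6 peak (106378596 to 106379676, 23 tags) overlapped an Etv6 peak of 48 tags and lay 0.735 kb from the window's edge. An H3K4me2 peak of 4860 bp (106289598 to 106294457) with 437 tags held an Etv6 summit, and the EGFP_OK peak at 106321344 to 106322524 (48 tags) had its summit 173 bp from an H3K4me2 summit.

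The Spry4 window on chromosome 18 (38690000 to 38800000) held 6 Etv6, 4 Pax6, 4 H3K4me2 and 3 EGFP_OK peaks. It lies on the same chromosome as Fgf1 but had EGFP_OK peaks at 2 sites shared with Pax6 and Etv6. At 38737589 to 38738670 the EGFP_OK peak held 41 tags, the Pax6 peak 37, the Etv6 peak 116 and the H3K4me2 peak 265. At 38760521 to 38762324 there were 98, 33 and 141 tags in the FLAG lists and no H3K4me2 peak, with the nearest H3K4me2 summit 15504 bp from the EGFP_OK summit. The strongest Etv6 peak there (38790584 to 38792403, 199 tags, 172 to 229) ranked 493 in its list and had Pax6 (36 tags) and H3K4me2 (205 tags) but no EGFP_OK peak.

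Dusp6 encodes a phosphatase that inactivates ERK, the last kinase of the cascade. Its window on chromosome 10 (98680000 to 98780000) held 6 Etv6, 5 H3K4me2, 3 Pax6 and 2 EGFP_OK peaks, and neither EGFP_OK peak overlapped another FLAG peak, as held for 77.0% of the EGFP_OK list. The middle of the window was filled by wide H3K4me2 peaks of 3954 bp (98722028 to 98725981, 458 tags) and 5286 bp (98727520 to 98732805, 570 tags). The EGFP_OK peak that overlapped both (98725079 to 98729577) was the widest FLAG peak in the windows at 4499 bp, with 202 tags at 3.45-fold, and the nearest Etv6 summit was 24291 bp away. Pax6 and Etv6 met on the flanks. The site at 98750520 to 98751406 held 27 Pax6 tags at 18.7-fold, the highest Pax6 fold in the windows, and 108 Etv6 tags at 12.4-fold, inside H3K4me2. The site at 98700925 to 98702050 held 41 Pax6 and 116 Etv6 tags with summits 13 bp apart, outside H3K4me2.

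Etv4 and Etv5 encode ETS factors of the PEA3 group, relatives of the tagged Etv6. The Etv4 window on chromosome 11 (101590000 to 101680000) held 6 H3K4me2, 5 Etv6, 3 Pax6 and 3 EGFP_OK peaks. All 5 Etv6 summits (95% exact binomial interval 47.8 to 100%) and all 3 Pax6 summits (29.2 to 100%) were inside H3K4me2. The shares of the lists, 51.9% and 43.7%, lie inside these intervals. H3K4me2 peaks covered 23.4% of this window, the most of the 8 windows. Its H3K4me2 peak of 7019 bp (101641026 to 101648044) was the widest in the windows and held 905 tags at 4.44-fold. An EGFP_OK peak of 62 tags and an Etv6 peak of 85 tags lay on it with summits 27 bp apart. The site in all 4 lists (EGFP_OK peak 101593570 to 101594779) held 46 EGFP_OK, 11 Pax6, 82 Etv6 and 359 H3K4me2 tags, with all FLAG summits within 67 bp. The H3K4me2 peak at 101650867 to 101654060 ranked 581 by score, the highest rank of that list in the windows, with 490 tags, 14 Pax6 tags and 99 Etv6 tags.

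At Etv5 EGFP_OK had the most peaks of the FLAG lists when all peaks were counted. The window on chromosome 16 (22340000 to 22480000) held 5 EGFP_OK, 4 H3K4me2, 2 Pax6 and 2 Etv6 peaks. With a score of at least 100, 2 EGFP_OK, 0 Pax6 and 1 Etv6 peaks were left. With the same number of top-scoring peaks from every list there were 2 EGFP_OK, 2 Pax6 and 1 Etv6 peaks. EGFP_OK was then level with Pax6, so its lead over Pax6 depended on the list lengths. The EGFP_OK peak at 22402301 to 22403484 held 119 tags (98.6 to 142) at 14.4-fold, ranked 893, the highest rank of EGFP_OK in the windows, and was in no other list, 12991 bp from the nearest Pax6 summit. The EGFP_OK peak at 22389304 to 22390104 (25 tags) overlapped a Pax6 peak of 20 tags with summits 11 bp apart and no Etv6 peak, the only such site in the windows. The EGFP_OK peak at 22428610 to 22430432 (84 tags) overlapped an Etv6 peak of 134 tags inside H3K4me2. A wide H3K4me2 peak of 5369 bp (22434144 to 22439512, 659 tags) and its narrower neighbour of 225 tags were joined by an EGFP_OK peak of 91 tags, whose summit lay in the neighbour, and no Pax6 or Etv6 peak overlapped them. Of the 2 Pax6 peaks, 1 overlapped an Etv6 peak, with 13 and 29 tags and summits 291 bp apart.

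Over all 8 windows, Pax6 peaks coincided with Etv6 peaks more often than in the whole lists. Of the 64 Pax6 peaks, 57 had an Etv6 peak on them, or 89.1% (95% exact binomial interval 78.8 to 95.5), against 72.6% of the Pax6 list. A Pax6 peak overlapped 57 of the 89 Etv6 peaks, or 64.0% (53.2 to 73.9), against 38.9% of the Etv6 list. Both shares of the lists lay outside these intervals, which cover counting error only and treat neighbouring peaks as independent. The windows were selected on called peaks, so these shares too are descriptions. Windows differed in this. Without Spry1 the Pax6 share was 81.6%, and at Fgf1 and Egfr alone it was 76.9% (10 of 13 peaks) and 72.7% (8 of 11 peaks), near that of the list. The Pax6 share was 35 of 37, or 94.6% (81.8 to 99.3), for summits inside H3K4me2, against 84.5% in the list, and 22 of 27, or 81.5% (61.9 to 93.7), for those outside, against 63.3%. The Etv6 share was 35 of 47, or 74.5% (59.7 to 86.1), inside H3K4me2, against 38.3%, and 22 of 42, or 52.4% (36.4 to 68.0), outside, against 39.5%.

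Few Pax6 peaks stood alone. In no other FLAG list were 6 of 64, or 9.38% (3.52 to 19.3), against 23.9% of the Pax6 list. All 6 lay at Fgf1 (3 of 13) and Egfr (3 of 11), where the shares of 23.1% and 27.3% were near that of the list, and Spry1 had 0 of 26. Without Spry1 the share was 6 of 38, or 15.8% (6.02 to 31.3). For Etv6 it was 30 of 89, or 33.7% (24.0 to 44.5), against 50.9%. These 30 Etv6 peaks held a median of 55.0 tags, against 116 for the 59 that were shared. In the whole list the medians were 44.0 and 70.0. Kept tags of Pax6 were 0.220 times those of Etv6, and the part of this difference in depth in the unshared Etv6 peaks was not tested.

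EGFP_OK peaks coincided with the other FLAG lists in 13 of 33 cases. Etv6 accounted for 12, or 36.4% (20.4 to 54.9), against 20.9% of the list, which lies inside that interval. Pax6 accounted for 11, or 33.3% (18.0 to 51.8), against 11.7% of the list. When peaks of either list scoring under 100 were left out, Pax6 accounted for 1 of 14, or 7.14%, against 5.19%. Both accounted for 10, or 30.3% (15.6 to 48.7), against 9.65% of the EGFP_OK list, and these sites were 15.6% of the Pax6 peaks, against 16.6%, and 11.2% of the Etv6 peaks, against 9.01%. Inside H3K4me2 10 of 17 EGFP_OK peaks had an Etv6 peak, or 58.8% (32.9 to 81.6) against 57.0%, and outside it 2 of 16, or 12.5% (1.55 to 38.3) against 7.64%. Seen from the other lists, an EGFP_OK peak overlapped 13.5% (7.17 to 22.4) of the Etv6 peaks, against 19.2%, and 17.2% (8.90 to 28.7) of the Pax6 peaks, against 20.1%. Both were within counting error of the lists. The 20 EGFP_OK peaks in no other FLAG list, or 60.6% (42.1 to 77.1) against 77.0% of the list, lay between 1599 and 32726 bp from the nearest Pax6 or Etv6 summit. Of them, 8 lay within 5 kb. This was not counted over the whole list, so it says nothing particular about the windows. Of the 20, 14 had their summit outside H3K4me2, or 42.4% (25.5 to 60.8) of all EGFP_OK peaks against 66.2% of the list.

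**Figure D4:**
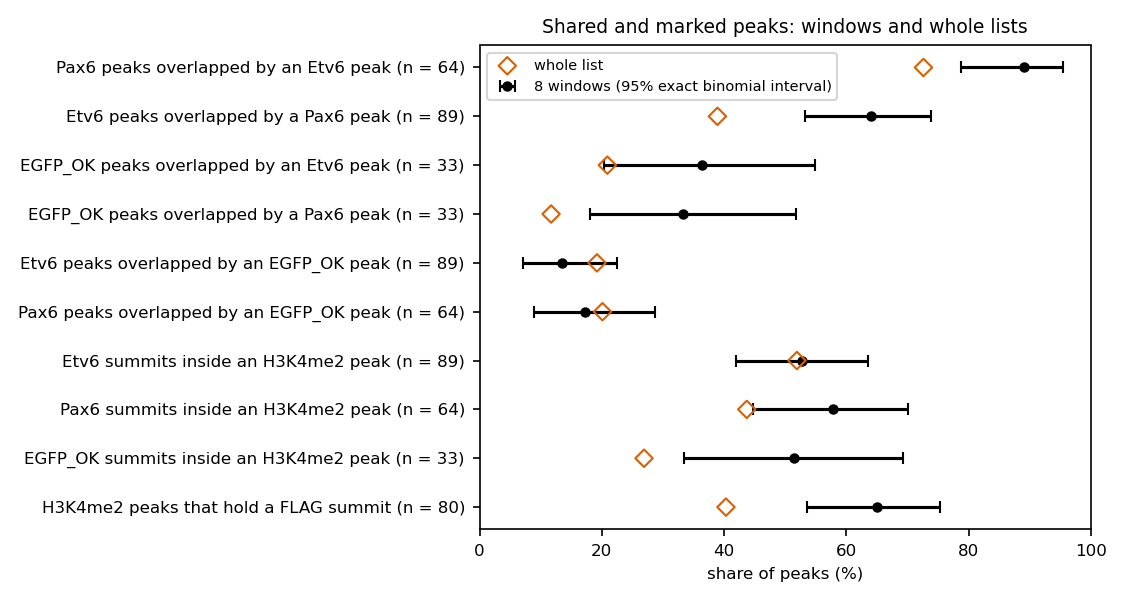
Share of peaks (x axis, %) that overlapped another FLAG list or lay inside H3K4me2, in the 8 windows (black dots, with 95% exact binomial intervals for counting error) and in the whole lists (orange diamonds). The diamonds of Pax6 with Etv6 (72.6%), Etv6 with Pax6 (38.9%), EGFP_OK with Pax6 (11.7%), Pax6 and EGFP_OK in H3K4me2 (43.7% and 26.9%) and H3K4me2 with a FLAG summit (40.3%) lie outside the intervals of the windows, which were selected on called peaks.

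H3K4me2 covered about the usual share of Etv6 summits in the windows and a larger share of EGFP_OK summits. Of the Etv6 summits, 47 of 89, or 52.8% (41.9 to 63.5), were inside an H3K4me2 peak, against 51.9% of the list. For Pax6 the share was 37 of 64, or 57.8% (44.8 to 70.1), against 43.7%. For EGFP_OK it was 17 of 33, or 51.5% (33.5 to 69.2), against 26.9%. The titles of the H3K4me2 and EGFP_OK libraries name N31, while those of Pax6 and Etv6 name NS. Differences in marking between the FLAG lists and differences between the cells named cannot be told apart. Shared peaks were marked more often than the others. Of the 13 EGFP_OK peaks shared with another FLAG list 11 were inside H3K4me2, or 84.6%, and of the 20 others 6, and the whole list had the same order, with 70.3% and 14.0%. Of the 59 shared Etv6 peaks 37 were inside, or 62.7%, and of the 30 others 10, or 33.3%, against 56.2% and 47.6% in the list. Of the 58 shared Pax6 peaks 36 were inside, or 62.1%, and of the 6 others 1, or 16.7%, against 50.4% and 22.2% in the list.

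Of the 80 H3K4me2 peaks, 52 held a FLAG summit, or 65.0% (53.5 to 75.3), against 40.3% of the list. The windows were selected on called peaks, and this share rises with the density of FLAG peaks in them, so it and the shares that follow are descriptions. Etv6 summits were in 45, or 56.2% (44.7 to 67.3) against 31.9%, and Pax6 summits in 36, or 45.0% (33.8 to 56.5) against 14.5%. EGFP_OK summits were in 17, or 21.2% (12.9 to 31.8) against 15.3%, and summits of all 3 FLAG lists in 8, or 10.0% (4.42 to 18.8) against 4.01%. H3K4me2 peaks of the windows were also wider, with a median of 2120 bp against 1628 bp in the list, and the part of this width in those shares was not tested. Peaks over 3 kb numbered 17 in 7 windows, or 21.2% (12.9 to 31.8) against 14.4% of the list, and lay between 2.78-fold and 6.21-fold.

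The median distance between the summits of overlapping Pax6 and Etv6 peaks was smaller in the windows than in the lists. The median distance was 43.0 bp over 57 pairs, against 76.0 bp over the 12050 pairs of the lists. Summits were within 100 bp in 42 of the 57 pairs, or 73.7% (60.3 to 84.5), against 60.5%, which lies inside that interval. The pair with the largest distance, 731 bp, lay at Spry1 (37861381 and 37862112). For EGFP_OK and Etv6 the median was 98.5 bp over 12 pairs, against 129 bp.

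The tags of both factors were compared at these 57 pairs, scaled to the kept tags of each library. The Pax6 peak held a median of 1.19 times the tags of the Etv6 peak, against 1.32 over the lists, and the pairs ran from 0.576 to 2.18. Each peak was called separately, and Pax6 peaks were mostly narrower. Per kb of peak width the median ratio was 1.61 in the windows and 1.66 over the lists, and the pairs ran from 0.877 to 3.02. The spread of ratios within a window depended on this choice. At Spry1 the ratio was 1.91 (95% interval 1.53 to 2.36) at the site with 121 Pax6 tags and 0.576 (0.343 to 0.920) at 38044506, the highest and the lowest of 26. Per kb these became 1.66 and 0.952, and neither was then the highest or the lowest there. At Fgf1 the median of 10 ratios was 1.13, and all 10 intervals overlapped each other. At Etv4 the ratio was 1.90 (1.12 to 3.15) at 101633905 and 0.611 (0.293 to 1.15) at 101594204, or 1.63 and 0.924 per kb.

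**Figure D5:**
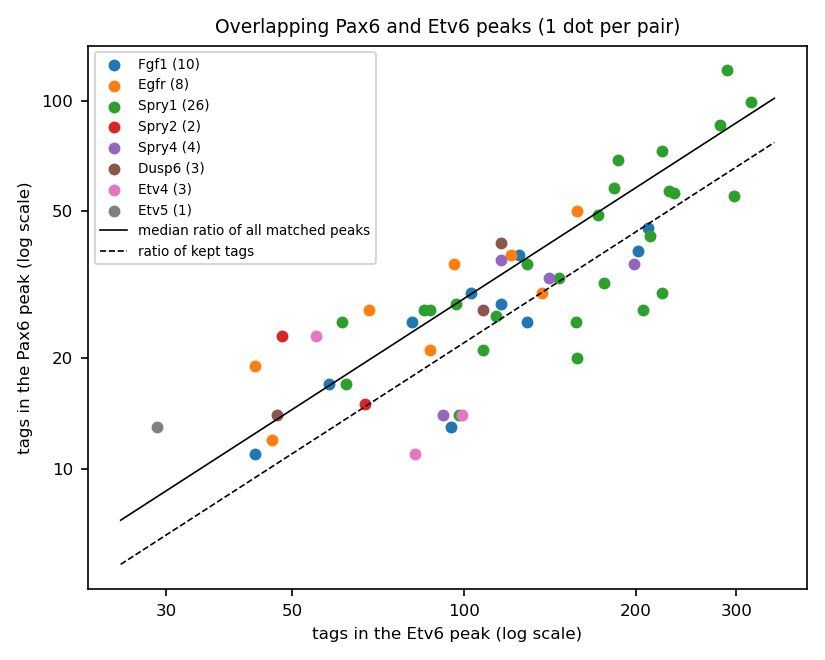
Tags in the Pax6 peak (y axis) against tags in the Etv6 peak it overlaps (x axis), both on log scales, 1 dot per pair and 1 colour per window; the solid line is the median ratio of all matched peaks and the dashed line the ratio of kept tags. The dots follow the lines, and at Spry1 they spread from 20 Pax6 tags at 158 Etv6 tags to 121 at 289.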

How the data were processed

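ChIP-seq peak lists of 4 libraries, 1 per group and without replicates, were used in mm9 coordinates. Per the submitters' processing notes, CASAVA 1.8.1, BWA 0.6.2 and MACS 1.4.2 were used. Per the file headers, MACS called peaks in each library without a control, at a p cutoff of 1e-05, keeping 1 tag per position, with the band width set to 300 bp, the regional background to 10000 bp and the effective genome to 1.87e+09 bp. The deposited tag counts per peak were counted by the authors' peak caller after that duplicate filter. The deposited score is 10 times the −log10 of the caller's p-value, and the deposited fold is the summit height over the local background, per the file headers. The deposited width and summit position are in bp.

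Members and lists were chosen with earlier results of these data known. A peak belonged to a window by its summit, and peaks overlapped from 1 bp. Sites are merged overlapping peaks of any list. In each window the text names sites in all 4 lists, where there are any. It also names some, not all, of the peaks with the highest scores or FLAG folds, and further peaks. These were chosen after their values were seen. Shares have exact Clopper-Pearson intervals, tags exact Poisson intervals and tag ratios exact conditional binomial intervals, all at 95%, and peaks that lie together are not independent. No test was made, since each group held 1 library. Python 3.11.15, pandas 2.3.3 and scipy 1.17.1 were used, and the overlap code was tested on simulated data. Alternatives were peaks with a score of at least 100, equal list lengths, summits within 200 bp, windows 50 kb wider, other scalings and leaving out windows. No mm9 genome or annotation was used, so peaks were not assigned to gene starts and other pathway genes were not analysed here.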

Additional observations from a re-analysis of the deposited data

How the results depend on the processing

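The counts of peaks depended on the list lengths and on the Spry1 and Fgf1 windows. With a score of at least 100, the 8 windows held 14 EGFP_OK, 22 Pax6, 49 Etv6 and 61 H3K4me2 peaks. At the densities of such lists they would hold 11.9, 3.89, 13.0 and 33.6. The density ratios were thus 1.17, 5.66, 3.77 and 1.81, against 1.26, 4.17, 3.11 and 1.75 with all peaks. With every list shortened to its 16604 top-scoring peaks they held 18 EGFP_OK, 64 Pax6, 52 Etv6 and 20 H3K4me2 peaks, against 15.4 for each at the density of such a list. Without the Fgf1 and Spry1 windows, an alternative chosen after seeing the data, 20 EGFP_OK, 25 Pax6, 36 Etv6 and 38 H3K4me2 peaks were left. These windows make up 200 and 650 kb of the 1730 kb, so fewer peaks are left at any density. When that minimum score applied to both lists, 7.14% of EGFP_OK peaks had a Pax6 peak (whole list 5.19%) and 4.55% of Pax6 peaks an EGFP_OK peak (whole list 15.9%), each 1 peak, and 42.9% of Etv6 peaks had a Pax6 peak (whole list 24.0%). With that score for FLAG peaks, 77.3% of Pax6 and 67.3% of Etv6 summits were inside H3K4me2, against 47.7% and 57.8% of the whole lists. Scaled by the median ratio of all matched peaks, the median Pax6 to Etv6 tag ratio was 0.899, and per kb of peak width, also chosen after seeing the data, 1.61. Both are on another scale than the reported 1.19, so their distance from it is no check of it. The cause of the other changes was not tested. In all, 69 of 72 shares between FLAG lists and 34 of 36 shares inside H3K4me2 stayed within the 95% interval of the reported share. Most of these alternatives only left out windows and reused the other peaks, so large changes were unlikely from the start. With summits within 200 bp, EGFP_OK with Pax6 was 18.2% (whole list 7.34%), against the reported 33.3% (18.0 to 51.8). Of 4 median tag ratios, the 2 on the reported scale stayed within the 95% order-statistic interval of the reported median, 1.04 to 1.38. That interval does not apply to the 2 on another scale. Leaving out 1 window at a time gave 81.6 to 92.5% for Pax6 with Etv6 and 57.4 to 66.2% for Etv6 with Pax6. Of 160 counts of single windows under the alternatives, 48 moved by over 1.5 times. No paired analysis was possible because each group held 1 library. With no control library and no replicate, a missing peak is not a measured absence, and the smallest listed peaks held 10 to 19 tags.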
